A study of Mus musculus with 16 samples.

Results

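The regions of active chromatin that were gained or lost in the epithelium of the mouse small intestine between embryonic days E12.5 and E14.5 are described here. Active chromatin was mapped as H3K27ac, the acetylation of lysine 27 of histone H3, by chromatin immunoprecipitation and sequencing (ChIP-seq), and each library came with its own list of peaks, the stretches where the ChIP signal passed the threshold of the peak caller over the input DNA. The peaks of the 2 E12.5 and the 2 E14.5 libraries were merged where they overlapped or touched. A merged region was gained when both E14.5 libraries and neither E12.5 library had a peak in it, and lost in the reverse case. This gave 11348 gained and lost regions out of 62048 merged regions of the embryonic libraries, while the peaks of all 8 libraries of the series merge into 79481 regions.

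All samples came from mice of mixed C57BL/6 CD1 background. The embryonic cells were sorted from dissected small intestine as living cells that carried EpCAM, an epithelial surface protein, but neither CD31, found on endothelium, nor CD45, found on leukocytes. The sources used here give neither the sex of the embryos nor whether several were pooled. The adult cells, which serve as later reference points, came from males of the Lgr5EGFP-Cre-ERT line at postnatal day 60. They were enterocytes, the absorptive cells of the villus, sorted by the same surface markers, and Lgr5+ intestinal stem cells (ISC), sorted from crypts for high GFP. Each of the 4 groups had 2 libraries, described by the series as biological duplicates. The embryonic ChIP libraries held 37.9 to 54.6 M tags and 46710 to 52510 peaks, which covered 43.6 Mb in E12.5 replicate 1 and 59.99 Mb in replicate 2, against 65.1 and 56.9 Mb in E14.5 replicates 1 and 2. The adult lists covered 51.2 and 76.1 Mb in ISC and 38.8 Mb in each enterocyte library.

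H3K27ac is written by the acetyltransferases CBP and p300 and marks promoters and enhancers that are in use. Enhancers are the more variable of these between tissues and stages, and clusters of them along a chromosome often surround genes that define a cell's identity. Over the interval studied, the gut endoderm passes from a thick pseudostratified tube towards a columnar epithelium that begins to raise villi, ahead of the differentiation of most absorptive and secretory cells. The peak lists use the mouse build mm9, and the gene table at hand is on another build, so regions are given by mm9 position without gene names, and the EpCAM-positive identity of the cells was not checked against marker loci. A peak call also cannot tell whether more cells carry the mark or each cell carries more of it.

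Gains outnumbered losses. Of the merged embryonic regions, 7726 were gained (12.45%) and 3622 were lost (5.837%), and 24271 were shared, with a peak in all 4 libraries. Seen from each stage, the same 24271 shared regions were a larger part of the E12.5 set, which held fewer regions. Of the 29709 regions with a peak in both E12.5 libraries, 81.7% had one in both E14.5 libraries, 6.11% in one of them and 12.2% in neither. Of the 36109 regions in both E14.5 libraries, 67.2% had a peak in both E12.5 libraries, 11.4% in one and 21.4% in neither. With equal numbers of peaks in the 4 embryonic libraries, 7148 regions were gained and 3683 lost. With each library left out in turn, the balance turned only for E12.5 replicate 1, the list with the least covered length. Without it 8080 regions were gained and 12174 lost, whereas without E12.5 replicate 2 there were 11782 and 6657, without E14.5 replicate 1 12745 and 5272, and without E14.5 replicate 2 15577 and 3957. A stage left with 1 library meets its part of the rule more easily, which by itself raises these counts. The presence pattern with the most regions after the shared one was E12.5 replicate 2 alone, with 8066 regions, against 1295 for E12.5 replicate 1 alone.

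**Figure D1:**
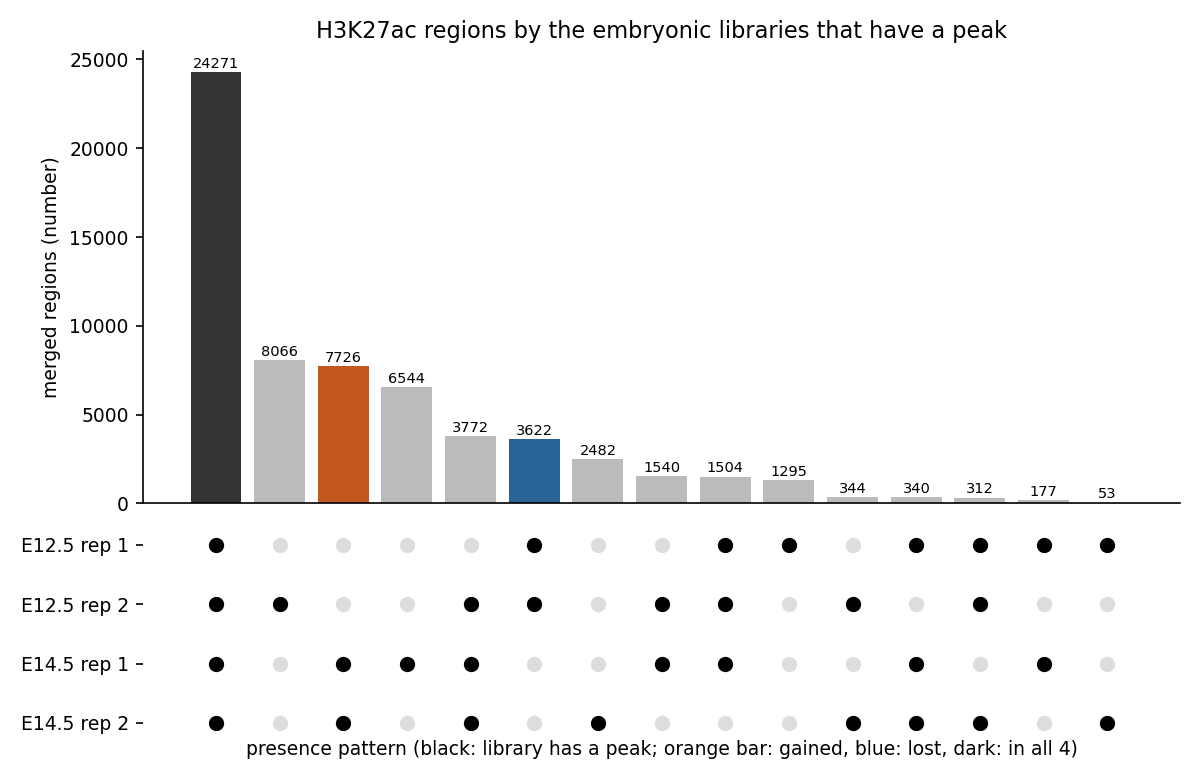
Number of merged regions (vertical axis) for each combination of the 4 embryonic libraries with a peak, marked by black dots below the bars. The 24271 shared regions form the tallest bar, the 7726 gained regions (orange) are over 2 times as many as the 3622 lost regions (blue), and 8066 regions are found in E12.5 replicate 2 alone.

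Gained and lost regions were short next to shared ones. The median length was 661 bp for gained regions (quartiles 463 and 1049 bp), 636 bp for lost regions (456 and 929 bp) and 1973 bp for shared regions. At least 2 kb was reached by 362 gained regions (4.69%), 111 lost regions (3.06%) and 49.0% of shared regions. The shortest covered length that entered was 217 bp for a gained and 207 bp for a lost region. Within their own lists the members were mostly modest peaks. Ranked by −log10 q, the strongest peak of the median gained region stood at percentile 37.8 in E14.5 replicate 1 and 30.9 in replicate 2, and that of the median lost region at 25.6 and 40.0 in E12.5 replicates 1 and 2. For shared regions the same percentile lay between 68.5 and 75.7 in the 4 libraries. Only 75 and 51 gained regions reached percentile 75 of the lists of E14.5 replicates 1 and 2, and 26 and 39 lost regions that of E12.5 replicates 1 and 2.

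Long regions were ranked by the smaller covered length of the 2 libraries that have them. Among the 8 longest gained regions, the first lay on chromosome 6 from 86720852 to 86727475. Peaks covered 6.42 and 6.25 kb of it in the E14.5 libraries and none in the E12.5 libraries, and 6.62 kb in both ISC libraries and 5.75 and 5.41 kb in the enterocyte libraries. The second, on chromosome 1 from 67157287 to 67163696, was covered over 5.96 and 6.20 kb at E14.5 and as fully in ISC (5.97 and 6.25 kb), but over 1.21 and 3.57 kb in enterocytes. The third, on chromosome 1 from 169311285 to 169316445, was nearly filled from E14.5 onward: 5.12 and 5.16 kb at E14.5, 5.16 kb in both ISC libraries and 5.10 and 5.16 kb in enterocytes. At these places the E12.5 libraries were at 0, both ISC libraries had at least 5.16 kb, and the enterocyte libraries were clearly lower at the second.

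As in the regions above, each of the other 5 had less cover in at least 1 adult library than in either E14.5 library. On chromosome 4 from 108578025 to 108583576, peaks covered 5.55 and 5.04 kb at E14.5 and, in the adult, 0.776 and 2.65 kb in ISC and none in enterocytes. On chromosome 2 from 6270018 to 6275048, they covered 4.93 and 4.24 kb at E14.5 and, in the adult, 1.22 and 4.36 kb in ISC and none in enterocytes. In both of these regions the enterocyte libraries were at 0 while the ISC replicates differed from each other by more than the E14.5 replicates did. The region on chromosome 6 from 83364330 to 83369844 had 5.43 and 4.76 kb at E14.5 and, in the adult, 4.50 and 5.51 kb in ISC and 1.92 and 2.77 kb in enterocytes. It lies 0.804 kb from a shared region, and the call ended when peaks within 1 kb were merged. The one on chromosome 2 from 132058323 to 132062605 had 4.18 and 4.14 kb at E14.5 and was the only one of the 8 with more cover in both enterocyte libraries (3.93 and 4.05 kb) than in ISC replicate 1 (2.67 kb) while ISC replicate 2 had 4.04 kb. Its peaks ranked at percentiles 54.7 and 30.0 of the E14.5 lists, and the call ended when only peaks with a −log10 q of 10 or more were kept. The eighth, on chromosome 6 from 16802723 to 16807007, stood 175 kb from the nearest shared region, had 4.12 and 4.25 kb at E14.5 and had no peak in any other library. A second long region of that kind, on chromosome 7 from 140954079 to 140957838, had 3.61 and 3.70 kb at E14.5 and no peak elsewhere.

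The 8 longest lost regions had almost no peak in later libraries. The first, on chromosome 5 from 117116821 to 117125525, was covered over 8.03 and 8.59 kb at E12.5, and neither the E14.5 nor the adult libraries had a peak there. It was also the strongest of the 16 long regions within its lists, at percentiles 95.6 and 97.3, and lay 243 kb from the nearest shared region. The second, on chromosome 4 from 40254519 to 40261265, had 6.04 and 6.46 kb at E12.5 and, of the adult libraries, 0.663 kb in ISC replicate 2. The third, on chromosome 12 from 98361589 to 98367387, had 5.03 and 5.79 kb and was the most isolated, 1129 kb from a shared region. The other 5 were covered over 3.27 to 5.89 kb in the E12.5 libraries, and the other 6 libraries were at 0. They lay on chromosome 5 (103241588 to 103247672), chromosome 2 (147846816 to 147852451), chromosome 1 (90399252 to 90403224), chromosome 8 (9041608 to 9045165) and chromosome 15 (66228227 to 66231802). Lost regions with an adult peak in every library were short. The first by the same ranking of covered length lay on chromosome 3 from 145859671 to 145860885. It had 0.948 and 0.973 kb at E12.5, 0.226 and 0.438 kb in ISC and 1.22 kb in both enterocyte libraries. It did not remain when only peaks with a −log10 q of 10 or more were kept. The next, on chromosome 9 from 21361454 to 21362878, had 0.925 and 1.43 kb at E12.5, 0.286 and 0.644 kb in ISC and 0.735 and 0.745 kb in enterocytes.

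**Figure D2:**
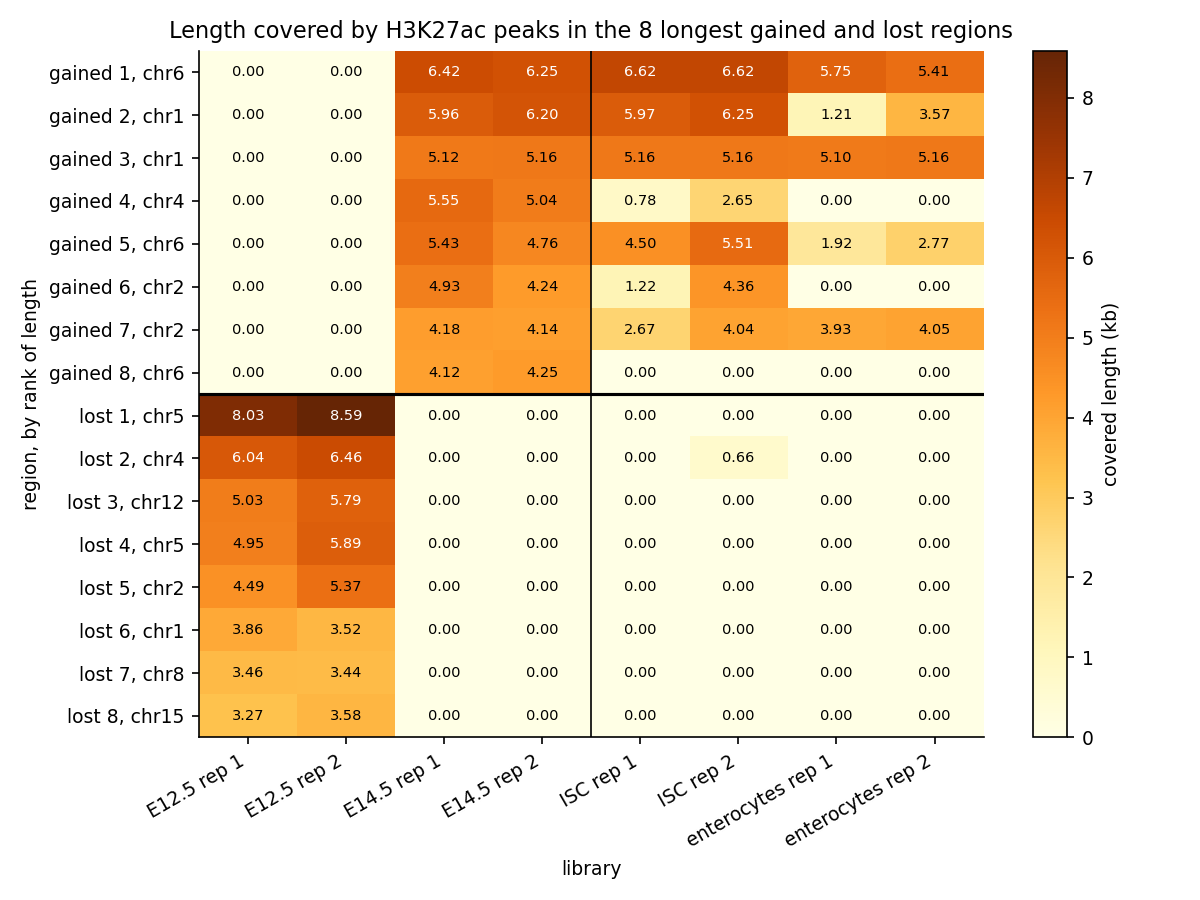
Length covered by H3K27ac peaks (kb, colour and printed value) in the 8 longest gained and 8 longest lost regions (rows, with their chromosome) in each of the 8 libraries (columns, rep = replicate). Of the gained regions 7 have peaks in the ISC libraries, with 6.62 kb in both for the first, whereas the lost regions are at 0 in the adult libraries except for 0.663 kb in ISC replicate 2.

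The adult libraries took no part in choosing the regions, and they separated gained from lost regions. Of the gained regions, 51.5% had a peak in ISC replicate 1 and 67.7% in replicate 2, a mean of 59.6 ± 11.4% (SD, n = 2), and 36.7 and 37.3% had one in the enterocyte libraries (37.0 ± 0.384%). Of the lost regions, 4.20 and 9.17% had a peak in the ISC libraries (6.68 ± 3.51%) and 2.71 and 2.46% in the enterocyte libraries (2.58 ± 0.176%). In each of the 4 adult libraries the share was thus higher for gained than for lost regions, and the gap was larger than the difference between replicates. Among all merged embryonic regions the shares were 45.5 and 56.4% in ISC and 32.7 and 34.2% in enterocytes, and among shared regions 75.02 and 82.5% in ISC and 56.2 and 59.8% in enterocytes. No peak in any adult library was found for 3223 lost regions (89.0%) and 2252 gained regions (29.1%), against 41.6% of all merged regions. A peak in all 4 adult libraries was found for 2087 gained (27.01%) and 21 lost (0.580%) regions. The share over all merged regions was 28.1%, so the gained regions were near it and the lost regions were below it. These shares are descriptions per library and were not tested. For a contrast of 2 libraries against 2, no exact permutation test can go below p = 0.333.

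The same contrast held for regions found in a single embryonic library, which the rule leaves out. Regions of E14.5 replicate 1 alone (6544) had an adult peak in 37.6 ± 12.6% of cases in ISC and 20.9 ± 0.583% in enterocytes, and those of E14.5 replicate 2 alone (2482) in 37.6 ± 11.99% and 20.6 ± 0.484%. Regions of E12.5 replicate 2 alone (8066) had one in 10.0 ± 5.22% in ISC and 3.03 ± 0.0789% in enterocytes, and those of E12.5 replicate 1 alone (1295) in 7.49 ± 3.93% and 2.28 ± 0.164%. A region seen only at E12.5 therefore seldom had an adult peak whether 1 or both libraries had it. Regions seen only at E14.5 had one more often when both libraries had them, in each of the 4 adult libraries.

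Among gained regions, as among all others, those with peaks in ISC but not in enterocytes outnumbered those of the reverse kind. There were 1438 gained regions (18.6%) with a peak in both ISC and in neither enterocyte library, and 130 (1.68%) with the reverse. The same shares were 13.1 and 0.912% of all merged regions and 15.4 and 0.383% of shared regions, so the excess was not particular to gained regions. Enterocyte lists hold fewer peaks and less covered length, as given above, and their part in this difference was not tested beyond one setting. With the same number of peaks in each of the 8 libraries, 877 of 5198 gained regions (16.9%) were of the first kind and 152 (2.92%) of the second. The share of gained regions with a peak in enterocytes was then 44.8 ± 1.21%, and in ISC 62.7 ± 8.60%.

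The adult shares of gained and of lost regions went in opposite directions with length. Of gained regions under 500 bp, 47.0 ± 13.8% had a peak in ISC and 26.99 ± 0.811% in enterocytes, and the shares rose through each length class to 88.3 ± 4.49% and 69.3 ± 1.95% of those of at least 2 kb. Of lost regions under 500 bp, 8.16 ± 4.30% had a peak in ISC and 2.82 ± 0.430% in enterocytes, against 2.25 ± 1.91% and 0.901% (both libraries alike) of the 111 lost regions of at least 2 kb. The share of shared regions rose with length too, from 47.3 to 87.1% in ISC (means of 2 libraries). The part that length itself plays in an overlap was not tested. At equal length, gained regions stood close to shared ones in the ISC libraries. Between 500 and 1000 bp, 50.2 and 67.0% of 3268 gained regions had a peak in ISC replicates 1 and 2, against 55.4 and 68.1% of 3390 shared regions. At 2 kb or more the order was the other way round, with 85.1 and 91.4% of 362 gained and 84.6 and 89.6% of 11899 shared regions. In enterocytes the shortest gained regions exceeded the shortest shared ones (26.4 and 27.6% against 11.1 and 14.3% in replicates 1 and 2), and in the longer classes the mean shares were within 5 percentage points of each other. The strength of the peaks gave the same order. Gained regions at a mean percentile under 25 in the E14.5 lists had an ISC peak in 48.0 ± 13.6% of cases, and those from percentile 50 to 75 in 80.3 ± 7.96%. Lost regions went from 8.20 ± 4.40% to 4.48 ± 2.03% between the same ranks in the E12.5 lists.

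**Figure D3:**
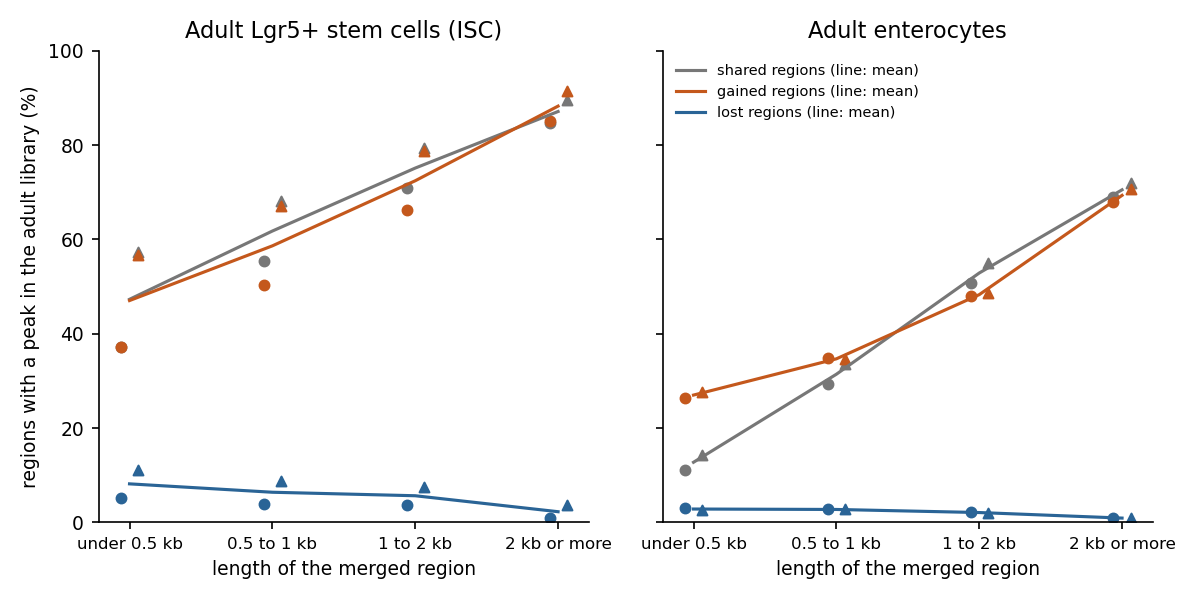
Share of gained, lost and shared embryonic regions with a peak in each adult library (vertical axis, %) by length of the merged region (horizontal axis), for ISC on the left and enterocytes on the right. Circles are replicate 1, triangles replicate 2 and lines their means: gained regions (orange) climb to 88.3% in ISC and 69.3% in enterocytes beside the shared regions (grey), while lost regions (blue) stay at or below 11.2% in every library.

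Most gained and most lost regions lay more than 5 kb from the nearest shared one. The median distance to the nearest shared region was 9.91 kb for gained and 13.4 kb for lost regions, and 35.6% of gained (95% Wilson interval 34.6 to 36.7%) and 32.7% of lost regions (31.2 to 34.3%) lay within 5 kb of one. The order turned at shorter distances, with 21.3% of gained and 22.1% of lost regions within 2 kb and 14.4 and 16.8% within 1 kb. More than 50 kb from any shared region were 17.4% of gained and 26.4% of lost regions. These intervals cover counting error only. Gained and lost regions had each other as neighbours less often than shared regions had either. Peaks of the stages that overlap or touch merge into a region that is neither gained nor lost, so the rule removes the closest pairs. Shared regions are also longer (median 1973 bp, against 661 bp for gained and 636 bp for lost regions). No such share over all merged regions is given here. A gained region lay within 20 kb of 329 of the 3622 lost regions (9.08%) but of 27.7% of the shared regions, and a lost region lay within 20 kb of 4.88% of the gained and 12.8% of the shared regions. Within 5 kb the corresponding shares were 1.74% of lost and 11.6% of shared regions for a gained neighbour. The order of the first pair was the same when each library was left out in turn (14.4 to 19.4% of lost and 30.7 to 45.0% of shared regions). Neighbouring regions share their chromosomal surroundings and are not independent, so these are descriptions.

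Some gained and lost regions came in runs along a chromosome. Linked across gaps of at most 20 kb, the gained regions formed 5013 runs, of which 103 had at least 5 regions, and 43.3% of gained regions stood alone. Lost regions formed 2703 runs, 22 with at least 5 regions, and 56.1% stood alone. The sets differ in size, and runs were not compared at equal numbers of regions. The longest run held 13 gained regions over 35.9 kb on chromosome 3 from 3612595 to 3648496. All peaks in that stretch covered 0 and 0.227 kb in the E12.5 libraries, 14.4 and 15.3 kb at E14.5 and, in the adult, 9.68 and 13.7 kb in ISC and 20.3 and 15.2 kb in enterocytes. A stretch with almost no peak at E12.5 thus had peaks at E14.5 and in both adult cell types, and it held no shared and no lost region.

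The second run held 12 gained regions over 75.2 kb on chromosome 10 from 88921756 to 88996946, a stretch that also had 3 shared regions. Peaks covered 4.56 and 5.92 kb of it at E12.5, then 20.5 and 18.9 kb at E14.5 and, in the adult, 8.75 and 16.8 kb in ISC and 8.05 and 4.60 kb in enterocytes, so that the E14.5 libraries were the highest. The third, with 11 gained regions over 63.5 kb on chromosome 1 from 129110025 to 129173550, had no peak at E12.5, then 11.8 and 8.94 kb at E14.5 and, in the adult, 33.3 and 46.5 kb in ISC and 14.7 and 16.6 kb in enterocytes. Here the ISC libraries were the highest, well above both others. The longest lost runs had 7 regions over 26.5 kb on chromosome 13 from 53347768 to 53374295, 7 over 41.4 kb on chromosome 11 from 88504163 to 88545608, and 6 over 23.7 kb on chromosome 2 from 35342392 to 35366128. Peaks covered 5.39 and 8.78 kb of the first at E12.5, then 2.85 and 1.798 kb at E14.5. They covered 3.04 and 5.84 kb of the second at E12.5, then 0.238 and 0 kb at E14.5. Neither had a peak in the adult libraries. The last of these runs had 5.34 and 6.65 kb at E12.5, then 0.539 and 0.455 kb at E14.5 and, in the adult, 1.03 and 2.26 kb in ISC and none in enterocytes.

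Gains and losses were spread over all chromosomes with enough regions to tell. On the 19 autosomes 10.4 to 13.9% of merged regions were gained (median 12.8%) and 5.13 to 7.45% were lost (median 5.56%), and gains exceeded losses on each, by 1.40 to 2.57 times. The X chromosome had the smallest gained share, 115 of 1325 regions (8.68%), with 90 lost (6.79%), and its ratio of 1.28 was below that of every autosome. The Y chromosome had 6 merged regions, of which none was gained or lost.

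Changes in the amount of sequence under peaks, as opposed to presence, were measured in fixed windows of 20 kb. Covered length was scaled to the same total in each library, and its log2 after adding 500 bp was fitted over all 8 libraries with limma. Of 30733 windows, 4398 had more covered length at E14.5 (14.31%) and 3588 had less (11.67%), at Benjamini-Hochberg adjusted p under 0.05. The windows that rose had a median covered length as deposited of 0 and 0.229 kb in the E12.5 libraries, 1.76 and 1.55 kb at E14.5 and, in the adult, 1.37 and 2.28 kb in ISC and 0.433 and 0.458 kb in enterocytes. The windows that fell had 1.19 and 1.70 kb at E12.5, then 0.339 and 0.219 kb at E14.5 and a median of 0 in each adult library. Peaks were present in 71.5 and 76.8% of the risen windows in ISC and in 53.3 and 53.8% in enterocytes, close to the shares over all windows tested (67.8 and 77.3%, 52.3 and 54.9%). Of the fallen windows 24.4 and 29.0% had a peak in ISC and 14.6 and 14.7% in enterocytes, below those shares in each library. The pooled spread favours windows at 0 in every adult library, and in a fit of the 4 embryonic libraries 31.9 and 40.8% of 3522 fallen windows had a peak in ISC and 20.2 and 21.9% in enterocytes, against 68.3 and 76.4% and 52.7 and 55.5% of all windows tested there. The balance of rises and falls turned without E14.5 replicate 1 (2038 more, 2714 less) and without E14.5 replicate 2 (1916 more, 2183 less). Without E12.5 replicate 1 there were 2804 and 1551 calls, and without E12.5 replicate 2 4283 and 1664.

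Of the windows that rose, 46.9% had no peak in either E12.5 library, and of those that fell, 39.8% had none at E14.5. The others had some peak in the window at the other stage, and part of them held a gained or a lost region as well. Of the rises 76.5% held a gained region and 0.296% a lost one, and of the falls 60.03% held a lost and 0.641% a gained one. Of all windows tested, 19.5% held a gained and 9.83% a lost region. These shares come from the same lists and are no separate evidence.

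**Figure D4:**
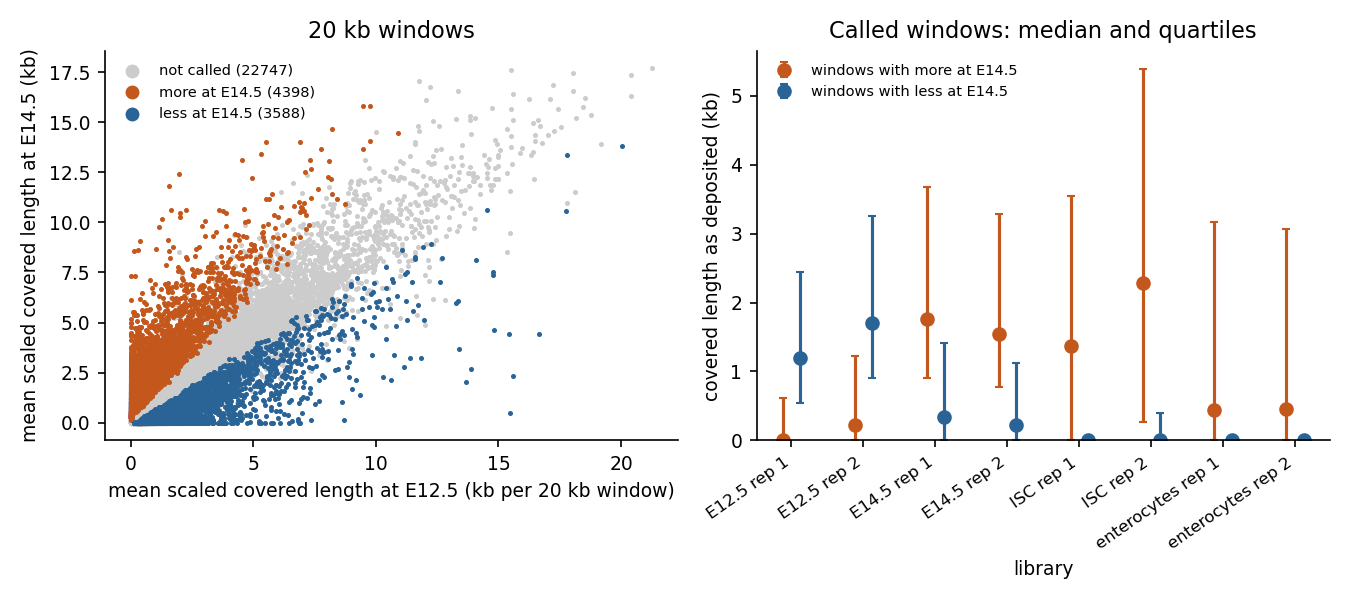
Left, mean scaled length covered by peaks in each 20 kb window at E12.5 (horizontal axis, kb) and E14.5 (vertical axis, kb), with the 4398 windows called higher in orange and the 3588 called lower in blue. Right, median (dots) and quartiles (bars) of the covered length as deposited in the called windows, by library: the windows that rose keep medians of 0.433 to 2.28 kb in the adult libraries, and those that fell are at 0 there.

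The windows with the largest rises are described with their values per library. After the window that holds the longest gained region (chromosome 6, 86720001 to 86740000; log2 change 3.97 ± 0.09 SE, limma adjusted p = 0.000251), in which peaks covered 12.8 and 17.6 kb in ISC, the next lay on chromosome 11 from 117200001 to 117220000. It had 0 and 0.264 kb at E12.5, then 10.9 and 8.56 kb at E14.5 and, in the adult, 0.966 and 2.21 kb in ISC and none in enterocytes (log2 change 3.90 ± 0.24, limma adjusted p = 0.000334), so that both E14.5 libraries stood above the other 6. On chromosome 3 from 3620001 to 3640000, within the run described above, peaks covered none at E12.5, then 6.62 and 7.22 kb at E14.5 and, in the adult, 3.35 and 4.74 kb in ISC and 11.3 and 8.90 kb in enterocytes. The enterocyte libraries were the highest there. On chromosome 1 from 169300001 to 169320000 the length rose from 0 and 0.631 kb to 10.1 and 9.43 kb, and was 15.5 and 16.6 kb in ISC and 15.3 and 15.7 kb in enterocytes. On chromosome 17 from 28940001 to 28960000 it rose from 0 and 0.411 kb to 8.91 and 7.66 kb, and was 12.2 and 16.7 kb in ISC and 13.3 and 12.46 kb in enterocytes. In these last windows all adult libraries were above the E14.5 libraries. The sixth, on chromosome 14 from 51760001 to 51780000, had none at E12.5, then 6.22 and 5.53 kb at E14.5 and, in the adult, 6.52 and 7.99 kb in ISC and 3.80 and 3.45 kb in enterocytes. In each of the 6 the E12.5 and E14.5 libraries did not overlap, as the choice required.

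The windows with the largest falls had little or no peak afterwards. The largest, on chromosome 7 from 6800001 to 6820000, had 14.3 and 14.7 kb at E12.5, then 0.488 and 0.583 kb at E14.5 and none in the adult (log2 change −4.02 ± 0.17, limma adjusted p = 0.000264). On chromosome 12 from 106140001 to 106160000 peaks covered 7.81 and 8.65 kb at E12.5, then 0.295 and 0 kb at E14.5 and none in the adult. On chromosome 2 from 147840001 to 147860000, the site of the fifth longest lost region, they covered 5.64 and 7.63 kb at E12.5, none at E14.5 and, of the adult libraries, 1.098 kb in ISC replicate 2. The remaining windows of the 6 also held long lost regions, on chromosome 1 (90400001 to 90420000) and chromosome 5 (103240001 to 103260000 and 117120001 to 117140000). They had 5.14 to 7.81 kb in the E12.5 libraries and 0 in the other 6.

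Regions present in all 4 embryonic libraries were tested for a change in breadth, the covered length within the region. Of the 24271 shared regions, limma called 955 broader at E14.5 (3.935%) and 1447 narrower (5.962%). The direction of this balance depended on the scaling, so that 39.8% of calls were broader with covered length scaled to equal totals and 66.3% without scaling (858 broader, 436 narrower). The median change over all shared regions was −0.12 on the log2 scale with scaling and 0.06 without, and the single regions named below changed far more than this shift. The counts also fell by over 1.5 times when some libraries were left out. Without E12.5 replicate 1 there were 355 broader and 798 narrower regions, without E14.5 replicate 1 280 and 821, and without E14.5 replicate 2 148 and 464, while without E12.5 replicate 2 there were 1267 and 1505.

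The narrowed regions seldom had a peak in the adult libraries. Although a peak was present in all 4 embryonic libraries, only 21.1 and 27.02% of the narrowed regions had one in the ISC libraries and 7.95 and 7.88% in the enterocyte libraries. Of the broadened regions 79.8 and 82.9% had one in ISC and 59.1 and 59.7% in enterocytes, and of all shared regions 75.02 and 82.5% and 56.2 and 59.8%. At E12.5 the narrowed regions had a median of 1.55 and 1.98 kb, against 1.29 and 1.68 kb for all shared regions. The call itself favours regions that are long at E12.5, so these lengths are no separate evidence. The adult shares are also partly built into the calls. The fit pools its spread over all 4 groups, and a region at 0 in every adult library adds none. Among the 2725 regions called narrower from the 4 embryonic libraries alone, 37.2 and 50.6% had a peak in ISC and 20% and 22.2% in enterocytes. Among the 2013 called broader, 80.7 and 88.5% and 59.7 and 61.7% did. The narrowed regions were thus still below all shared regions in each adult library, by less than in the fit of 8 libraries. The embryonic fit has 2 residual degrees of freedom against 4, and its limma adjusted p reached 1.8e-37 for a region named below. Such values rest on the spread pooled across regions, so the embryonic fit is a weak check.

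The shared region that broadened most lay on chromosome 7 from 146541999 to 146548829. Peaks covered 0.292 and 0.266 kb at E12.5, then 6.83 and 6.47 kb at E14.5 and, in the adult, 5.75 and 6.83 kb in ISC and 4.88 and 3.57 kb in enterocytes (log2 change 3.00 ± 0.19, limma adjusted p = 0.000612). On chromosome 8 from 129287712 to 129301828 the cover grew from 0.548 and 3.15 kb to 13.6 and 13.7 kb and stayed at 14.05 and 14.12 kb in ISC and 10.7 and 11.7 kb in enterocytes (log2 change 2.67 ± 0.43, limma adjusted p = 0.00931). That call of limma was lost without E14.5 replicate 1 (adjusted p = 0.0717) or replicate 2 (adjusted p = 0.112) and in a fit of the 4 embryonic libraries (adjusted p = 0.162), although the stages did not overlap. On chromosome 11 from 120945187 to 120952739 it grew from 0.349 and 1.25 kb to 7.50 and 6.94 kb, and was 7.19 and 7.55 kb in ISC and 7.55 and 7.36 kb in enterocytes. At all 3 places both E14.5 libraries and the 4 adult libraries had more cover than either E12.5 library, and the chromosome 8 region already had over 3 kb in E12.5 replicate 2.

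The shared region that narrowed most lay on chromosome 7 from 6801227 to 6815970, inside the window with the largest fall. Its cover went from 14.045 and 14.744 kb to 0.488 and 0.583 kb, and none was left in the adult. Another, on the same chromosome from 6749688 to 6755645, went from 4.22 and 5.96 kb to 0.318 and 0.656 kb and likewise had no adult peak (log2 change −2.64 ± 0.19, limma adjusted p = 0.000725). On chromosome 2 from 147861897 to 147867153, 9.45 kb from the lost region named above, the cover went from 4.19 and 5.26 kb to 0.598 and 0.217 kb, was 0.262 and 1.36 kb in ISC and was 0 in enterocytes.

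**Figure D5:**
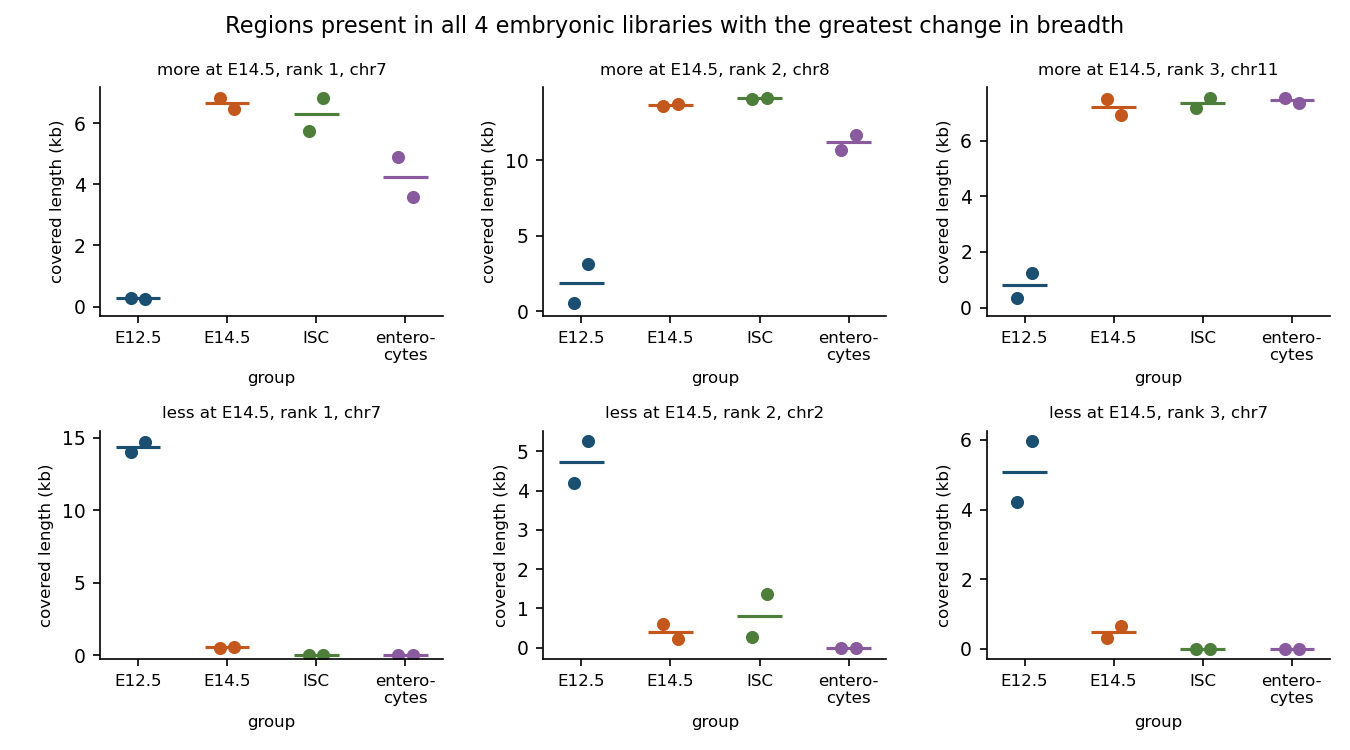
Length covered by peaks (vertical axis, kb; each panel has its own scale) in the 6 regions of all 4 embryonic libraries whose breadth changed most, by group. Dots are libraries and lines the mean of 2: the upper 3 regions reach 6.47 to 13.7 kb at E14.5 and stay between 3.57 and 14.1 kb in the adult libraries, and the lower 3 fall to between 0.217 and 0.656 kb at E14.5.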

How the data were processed

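H3K27ac ChIP-seq of 8 libraries, 2 for each of 4 groups, was deposited as 1 peak list per library. Reads were handled with Bowtie 1.1.2, bcl2fastq 1.8.4 and SAMtools 1.2 on build mm9, per the submitters' processing notes. Per the file headers, the authors called peaks with MACS 2.1.0.20140616 for each ChIP library against its own input at a q-value threshold of 0.05, after removal of duplicates. The deposited columns are peak position and length (bp), pileup signal at the summit, −log10 p and −log10 q, and fold enrichment, a ratio over the local background. Position, length and −log10 q were used; the length covered by called peaks is not signal height and depends on the caller's threshold and on depth. Input libraries were not analysed here.

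Peaks of the 4 embryonic libraries that overlapped by at least 1 bp or touched were merged. Covered length in 20 kb windows where 2 or more libraries had a peak, and in regions of all 4 embryonic libraries, was scaled to equal totals and fitted as log2(bp + 500) with limma 3.58.1 (R 4.3.3; lmFit, eBayes with trend and robust) over 4 groups, with Benjamini-Hochberg adjustment. Fold changes on this scale understate changes of short lengths. Each p-value sets the stage difference against a spread pooled over the duplicates of all 4 groups and shared in part across windows or regions. On simulated windows, 149 of 200 changed by 2 on the log2 scale were recovered among 30733, with 7 false calls. The changes were planted only in windows of intermediate mean cover over all libraries, so windows with little mean cover were left out. In the data, 4398 windows were called higher and 3588 lower, and 46.9% of the rises had no peak at E12.5. Whether these figures for recovery and false calls hold for the windows called in the data was not tested.

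Regions were named by rule: the 8 gained and 8 lost regions with the greatest smaller covered length of the 2 libraries that have them, the longest 2 with a peak in all 4 or in none of the adult libraries, the 6 windows and 3 shared regions with the largest called change in each direction without overlap of the stages (windows at least 40 kb apart), and the 3 runs with the most regions. The members and lists were chosen with earlier results of these data known. Lists of marker genes planned for the cell types were not used here, because the gene table given is on another build than mm9. Alternatives are given in the closing section.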

Additional observations from a re-analysis of the deposited data

How the results depend on the processing

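The 12 windows named kept direction and call in the 138 alternative values computed (highest limma adjusted p 0.0212), the 6 shared regions in 51 of 54 and the gained and lost regions in 73 of 76 settings; the exceptions are given with those regions. The named fallen windows on chromosome 1 (from 90400001) and chromosome 5 (from 103240001 and 117120001) have no value without either E12.5 library, since only 1 library then has a peak there. Counts moved more. When only peaks with a −log10 q of 10 or more were kept, there were 4101 gained and 1135 lost regions, 2474 windows with more and 1556 with less cover, and 146 broader and 479 narrower shared regions; 23.8% of gained and 20.1% of lost regions lay within 5 kb of a shared one, and 1.23% of lost regions had an enterocyte peak. Merging peaks within 1 kb gave 4923 gained and 2311 lost regions, 23.8 and 18.1% near a shared one and 38.0% of gained regions with an enterocyte peak. With equal numbers of peaks, 44.8% of gained and 3.30% of lost regions had an enterocyte peak, and when adult peaks had to cover 50% of a region, 31.3 and 1.79%. Within 2 kb of a shared region lay 21.3% of gained and 22.1% of lost regions, and within 10 kb 50.3 and 44.5%. Windows of 50 kb gave 2834 with more cover, and without scaling 2094 windows had less and 436 shared regions were narrower.

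With one library left out in turn, gained regions numbered 8080 to 15577 and lost regions 3957 to 12174, windows with more cover 1916 to 4283 and with less 1551 to 2714, and shared regions broader 148 to 1267 and narrower 464 to 1505. The share with an ISC peak ranged from 49.8 to 67.7% of gained and 4.20 to 11.8% of lost regions, and with an enterocyte peak from 30.0 to 37.3% and 2.32 to 3.36%. A stage left with 1 library was assumed to vary like the other groups. Leaving out embryonic libraries for these shares, fitting the shared regions on the 4 embryonic libraries alone (2013 broader, 2725 narrower) and scaling them to their median length (1427 and 1209, 54.1% broader) were chosen after seeing the data, as were the adult shares in the fits of the embryonic libraries and the comparison of lost and shared regions by their distance to a gained one.

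The replicate numbers are not stated to pair samples. With the replicate block, 4032 windows had more and 3196 less cover, and 811 shared regions were broader and 1197 narrower. The replicate differences of E12.5 and E14.5 had a correlation of −0.18 across windows, the lowest of the 6 pairs of groups, of which the other 5 ranged from −0.15 to 0.17. The depth limits short peaks: a region without a peak call can carry H3K27ac below the caller's threshold.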
